A study of Homo sapiens with 10 samples.

Results

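This account covers 47 genes of DNA replication and the S phase of the cell cycle in MEG-01 cells, a human megakaryoblastic line established from chronic myeloid leukemia in blast crisis. The genes were listed by name from the pathway. All 47 had at least 1 probe on the array, and 46 were among the 17379 genes with a probe detected well enough to be tested. An accession without a gene symbol was counted as a gene of its own. The cells were nucleofected with 200 nM of the miR-1225-3p precursor or with 200 nM of a scrambled negative control precursor, both for 24 h. Total RNA of 5 transfections per group, which the labels call biological replicates and which were run side by side, was hybridised to 10 single-colour Agilent 60-mer arrays. The study used the line in place of megakaryocytes to learn which mRNAs change when this platelet microRNA is raised. The level reached by miR-1225-3p was not measured on these arrays.

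The pathway runs in order. In G1 phase the MCM2 to MCM7 helicase ring is loaded on origins by ORC, CDC6 and CDT1, and geminin (GMNN) holds CDT1 in check. At the start of S phase, CDC45, MCM10 and the GINS complex turn the ring into a working helicase, primase and the replicative polymerases copy the strands, and the clamp PCNA, loaded by RFC, tethers them. Many of these genes are transcribed in late G1 phase under E2F factors, which are released when cyclin E and its kinase inactivate the retinoblastoma protein, so that the set is widely used as a sign of proliferation in blood cells. In a bulk RNA sample, a smaller share of cells in S phase and less RNA per cell cannot be told apart.

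The transfected strand is shown first, because it defines the treated group. Its seed, bases 2 to 8, is in capitals. The RefSeq record places it on the minus strand of GRCh38.p14 at chr16:2090195-2090216, and it is 22 bases long.
hsa-miR-1225-3p: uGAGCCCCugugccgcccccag

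Promoter sequences from RefSeq (GRCh38.p14) were searched for the E2F-type letters TTTCCCGC, TTTGGCGC, TTTCGCGC and TTTGCCGC on both strands, with overlapping matches counted separately. The window ran from 250 bases before to 50 bases after an annotated transcription start. For each S phase gene 1 record was used and other starts were not searched. The start used can differ from the outermost start of the gene, as for RRM2, UHRF1 and PRIM2. A promoter record was at hand for 40 of the 47 genes, and 20 of these (50%) held at least 1 match. The share was 3.31% among 35116 promoters of all genes and 5.43% among the 9636 tested genes that had a record. Matches stood in 6 of 15 promoters of genes called higher after miR-1225-3p, in 3 of 6 called lower and in 10 of 18 not called. By role, 6 of 7 origin licensing promoters and 1 of 5 nucleotide supply promoters held one. A match is a string of letters in this window and not a bound site.

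Promoters of 3 members called higher that held matches, and of the member with the deepest fall, are printed to show what a match looks like and a promoter without one. They were picked after their values were seen, and the promoters of RFC4 and GMNN, both called higher, held 0 matches. The 4 sequences are given 5′ to 3′ on the strand of the gene, with matched letters in capitals. E2F2 (chr1:23531184-23531483, minus strand) held 1 match and E2F1 (chr20:33686336-33686635, minus strand) held 2. MCM6 (chr2:135876394-135876693, minus strand) held 4 matches in overlapping pairs, and RRM2 (chr2:10122489-10122788, plus strand) held 0.
E2F2: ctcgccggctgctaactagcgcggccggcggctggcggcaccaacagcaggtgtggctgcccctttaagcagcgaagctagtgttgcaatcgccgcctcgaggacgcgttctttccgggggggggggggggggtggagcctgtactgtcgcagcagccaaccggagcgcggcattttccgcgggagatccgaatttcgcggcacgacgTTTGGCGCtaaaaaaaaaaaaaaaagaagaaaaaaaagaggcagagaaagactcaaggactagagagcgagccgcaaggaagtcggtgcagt
E2F1: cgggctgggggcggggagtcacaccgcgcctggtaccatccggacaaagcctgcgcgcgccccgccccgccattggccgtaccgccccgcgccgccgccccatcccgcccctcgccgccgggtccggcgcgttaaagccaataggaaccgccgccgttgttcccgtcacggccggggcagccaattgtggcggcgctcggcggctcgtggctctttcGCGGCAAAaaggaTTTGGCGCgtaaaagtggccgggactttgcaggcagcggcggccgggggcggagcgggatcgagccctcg
MCM6: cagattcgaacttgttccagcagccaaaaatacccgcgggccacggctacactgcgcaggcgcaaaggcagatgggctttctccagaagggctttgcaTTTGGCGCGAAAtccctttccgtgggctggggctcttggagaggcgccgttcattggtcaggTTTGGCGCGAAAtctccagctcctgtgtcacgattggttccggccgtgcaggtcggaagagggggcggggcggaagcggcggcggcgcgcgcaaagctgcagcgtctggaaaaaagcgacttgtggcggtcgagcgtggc
RRM2: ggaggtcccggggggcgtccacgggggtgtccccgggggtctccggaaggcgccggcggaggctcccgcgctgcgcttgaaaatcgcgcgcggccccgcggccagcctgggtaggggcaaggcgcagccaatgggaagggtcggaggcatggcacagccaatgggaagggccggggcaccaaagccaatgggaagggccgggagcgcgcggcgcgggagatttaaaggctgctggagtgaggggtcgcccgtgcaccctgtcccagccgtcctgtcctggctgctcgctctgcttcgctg

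Values are log2 processed signals after cyclic loess normalization, and a fold change is the mean of the miR-1225-3p arrays minus the mean of the scrambled arrays on that scale. Adjusted p values are from limma with the Benjamini-Hochberg correction over all 17379 genes, and a gene is called when this value is under 0.05. The share of spots well above background ran from 41.95% to 53.85% in the miR-1225-3p group and from 43.09% to 61.18% in the scrambled group, with 0 saturated spots. Of 15 megakaryocyte lineage markers with a probe, 10 were detected on all 5 scrambled arrays, among them GATA1, ITGA2B and PPBP, whereas PF4 was detected on 0 and VWF and SELP on 1 each. Markers of other cell types were mixed. Detection on all 5 scrambled arrays held for 2 of 6 T cell markers (CD3D among them), 1 of 5 B cell markers (CD79A), 4 of 5 monocyte and granulocyte markers (MPO among them), 3 of 5 epithelial markers (EPCAM, KRT8 and KRT18), 4 of 5 erythroid markers and 0 of 5 fibroblast markers. Detection on 0 scrambled arrays held for 2, 3, 0, 1, 0 and 3 of these in the same order.

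The miR-1225-3p replicate 5 array stood among the scrambled arrays. Its score on the first principal component was 56.7, inside the scrambled range of 48.7 to 79.9, and the other 4 miR-1225-3p arrays scored from -133 to -53.0. For 30 of the 46 tested S phase genes its value lay within the scrambled range, against 9, 8, 4 and 2 genes for replicates 1 to 4. Its RNA and its label could not be checked further here, so results are given with this array and again without it.

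Of the 46 tested S phase genes, 24 were called, beside 35.0% of all genes tested. Members were called in both directions. Higher signals after miR-1225-3p were called for 17 genes (17.0% of all genes) and lower signals for 7 (18.1% of all genes). The median fold change of the members was 0.28 on the log2 scale, and the median of all genes was -0.06. The split moved with the scaling: 28 higher (26.3% of all genes) and 5 lower (14.9%) were called after 75th percentile scaling, which placed the median of all genes at 0.16. Quantile normalization gave 22 higher (20.9% of all genes) and 4 lower (14.4%). Rises were larger under 75th percentile scaling, for example 1.41 for GMNN and 1.26 for CDC45. Without replicate 5, 22 members were called higher (26.4% of all genes) and 11 lower (29.0% of all genes), with a median of 0.30. In none of these settings did the members called lower exceed the share of all genes. The number of falls therefore cannot be read as a trait of the S phase genes.

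The called rises and falls are listed here by size, beside the shares of all genes. The fold changes of the 17 genes called higher ran from 0.37 for RPA3 to 1.53 for E2F2, and those of the 7 called lower from -0.46 for UHRF1 to -3.04 for RRM2. More than a 2-fold rise was called for E2F2 and RFC4 (5.69% of all genes), and more than a 2-fold fall for POLA2, POLD3, POLE, FEN1 and RRM2 (11.7% of all genes). Both counts were near the shares of all genes, among which such falls also outnumbered such rises (2028 against 989). POLA2, POLE and RRM2 met the rule for testing only through the scrambled arrays. All 5 miR-1225-3p values lay above all 5 scrambled values for 10 members (7.98% of all genes) and below them for POLD3 (4.74% of all genes). Without replicate 5 the groups did not overlap for 22 members above (23.1% of all genes) and 10 below (23.0% of all genes). Standard deviations were larger in the miR-1225-3p group, which includes replicate 5, for 42 of 46 members. They passed 1 for POLA2, POLD2, POLD3, RFC3 and RRM2. The share among all genes was not computed, so the larger spread cannot be read as a trait of the S phase genes.

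**Figure D1:**
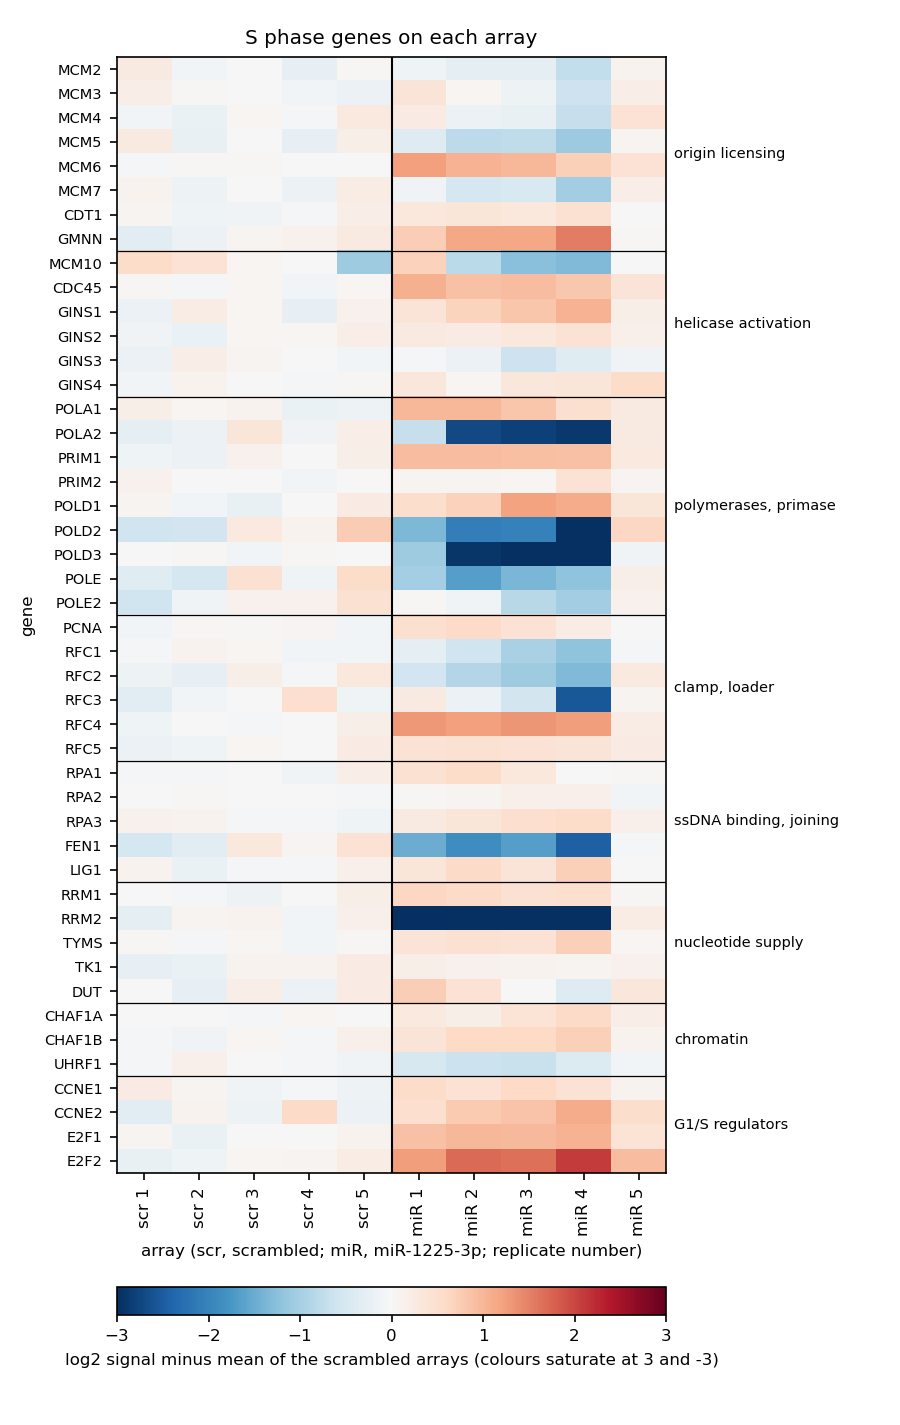
Each row is 1 of the 46 tested S phase genes in order of role and each column 1 array, coloured by log2 signal minus the mean of the 5 scrambled arrays (red higher, blue lower, colours saturate at 3 and -3). The first 4 miR-1225-3p columns hold the strong colours, and the miR 5 column is pale for most genes.

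**Figure D2:**
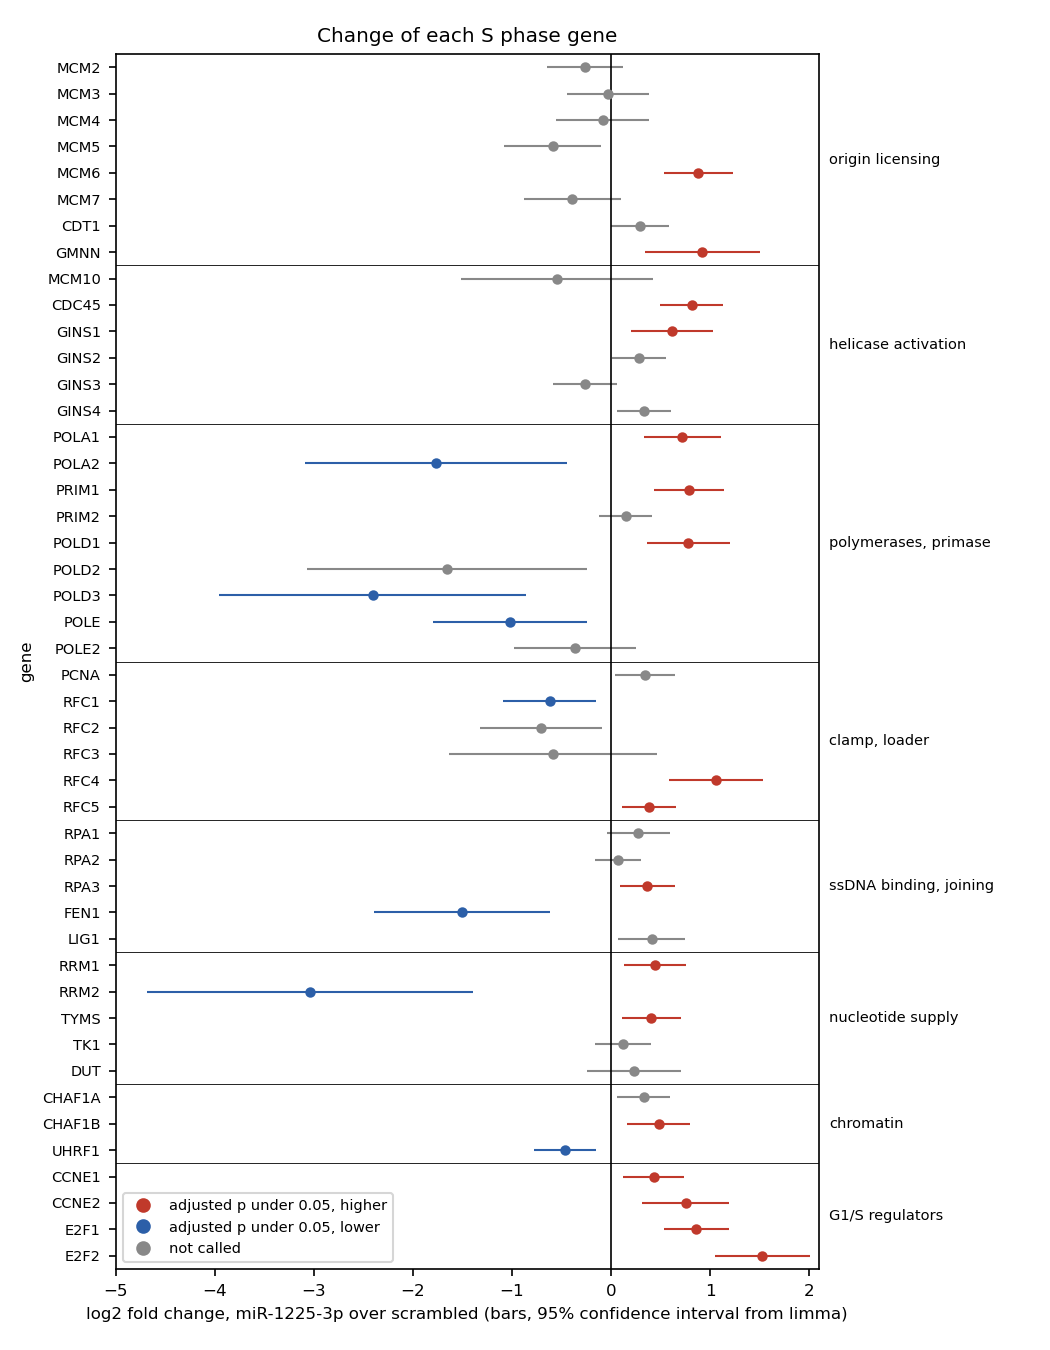
Points are the log2 fold change of each tested S phase gene, miR-1225-3p over scrambled (5 arrays each), with 95% confidence intervals from limma on the horizontal axis. The intervals of the genes called lower, such as RRM2 and POLD3, span several log2 units, while those of UHRF1 and RFC1 are narrower than that of GMNN, a gene called higher.

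The E2F factors and E-type cyclins were the one role group in which every member was called, and all 4 were higher (17.0% of all genes). E2F2, an activating E2F transcription factor, read 7.92, 8.38, 8.33, 8.76 and 7.60 on miR-1225-3p replicates 1 to 5. On scrambled replicates 1 to 5 it read 6.43, 6.54, 6.73, 6.75 and 6.89. The 2 groups did not overlap, and the lowest treated value was replicate 5. The fold change of 1.53 (SE 0.21, adjusted p = 0.0127) was the largest rise of the set and equals 2.89-fold. The two-sided exact permutation test gave p = 0.00794, the smallest that 5 against 5 arrays allow. E2F1, its close relative, rose by 0.86 (adjusted p = 0.0136), again without overlap. Cyclin E2 (CCNE2) and cyclin E1 (CCNE1), the activators of CDK2 at the G1/S boundary, rose by 0.75 and 0.43 (adjusted p = 0.0214 and 0.0382). The call of CCNE1 was lost on leaving out 1 array in 8 of 10 cases and that of CCNE2 in 2, and those of E2F1 and E2F2 held in all 10. With the normexp background correction the rises were smaller but still called. They were 1.05 for E2F2, 0.54 for E2F1, 0.45 for CCNE2 and 0.37 for CCNE1.

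Among the licensing genes, geminin and 1 subunit of the MCM ring were called higher (17.0% of all genes). No gene was called lower (18.1% of all genes). GMNN read 11.68, 12.11, 12.10, 12.47 and 10.98 on the miR-1225-3p arrays and 10.64, 10.78, 11.04, 11.07 and 11.21 on the scrambled arrays. Replicates 1 to 4 lay above every scrambled value and replicate 5 lay within them. The fold change of GMNN was 0.92 (SE 0.26, adjusted p = 0.0265), and its call was lost in 7 of 10 analyses that left out 1 array. MCM6 read 11.23, 11.03, 10.99, 10.70 and 10.43 after miR-1225-3p and 9.93, 10.02, 10.04, 9.97 and 10.01 after the scrambled precursor. Its scrambled values lay close together and all treated values stood above them. The rise of MCM6 was 0.88 (SE 0.16, adjusted p = 0.0136) and was called in every analysis that left out 1 array.

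The other 5 subunits of the same ring had negative fold changes, none of them called. MCM5, the furthest down, read 9.60, 9.22, 9.23, 8.91 and 10.07 on the miR-1225-3p arrays and 10.26, 9.78, 10.01, 9.74 and 10.18 on the scrambled arrays. Only replicate 5 overlapped the scrambled range. Its fold change was -0.59 (SE 0.22, adjusted p = 0.0590), and without replicate 5 it was -0.75 (adjusted p = 0.00502). The fold changes were -0.39 for MCM7, -0.26 for MCM2, -0.08 for MCM4 and -0.03 for MCM3. Under 75th percentile scaling those of MCM2, MCM3, MCM4 and MCM7 turned positive, and MCM3 was called higher (0.48, adjusted p = 0.0437). MCM7 was called lower without replicate 5 (-0.54, adjusted p = 0.0352). CDT1, the loader that geminin binds, had a fold change of 0.29 (adjusted p = 0.106) and passed without replicate 5 (0.37, adjusted p = 0.0177). CDC6, the other loader, was not tested, because its probe was well above background on 0 miR-1225-3p arrays and 1 scrambled array.

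Of the 6 genes that activate the helicase, CDC45 and GINS1 were called higher (17.0% of all genes) and none lower (18.1% of all genes). CDC45, which joins the MCM ring at firing, read 11.30, 11.12, 11.17, 11.03 and 10.62 on the miR-1225-3p arrays and 10.27, 10.17, 10.29, 10.15 and 10.28 on the scrambled arrays. All treated values stood above all controls, with replicate 5 nearest to them. CDC45 rose by 0.82 (SE 0.14, adjusted p = 0.0136). GINS1 rose by 0.62 (adjusted p = 0.0308, a call lost in 6 of 10 analyses that left out 1 array), whereas the fold changes of GINS4, GINS2 and GINS3 were 0.34, 0.28 and -0.26 and were not called. GINS2 passed without replicate 5 (0.32, adjusted p = 0.0390). MCM10, a scaffold of the activated helicase, read 5.79, 4.28, 3.83, 3.76 and 5.08 after miR-1225-3p and 5.64, 5.53, 5.15, 5.11 and 4.02 after the scrambled precursor. These are weak signals, well above background on 2 of 5 and 4 of 5 arrays, and the groups overlapped widely. Its fold change of -0.54 (SE 0.44, adjusted p = 0.335) was not called.

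Of 9 polymerase and primase genes, 3 were called higher (17.0% of all genes) and 3 lower (18.1% of all genes). In the polymerase alpha and primase complex, which lays down the first primer, the catalytic subunits POLA1 and PRIM1 were higher and the accessory subunit POLA2 was lower. PRIM1 read 7.83, 7.83, 7.81, 7.79 and 7.18 on the miR-1225-3p arrays and 6.77, 6.73, 7.04, 6.89 and 7.08 on the scrambled arrays. The groups did not overlap, although replicate 5 lay far from the other treated arrays. PRIM1 rose by 0.79 (SE 0.16, adjusted p = 0.0139) and POLA1 by 0.72 (SE 0.17, adjusted p = 0.0179). POLA2 fell, with a fold change of -1.77 (SE 0.59, adjusted p = 0.0428), and its probe was well above background on miR-1225-3p replicates 1 and 5 only.

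In polymerase delta, which copies mainly the lagging strand, the catalytic subunit POLD1 rose by 0.78 (SE 0.19, adjusted p = 0.0175) and the accessory subunit POLD3 fell. POLD3 read 7.89, 6.04, 5.21, 4.75 and 8.83 on the miR-1225-3p arrays and 8.95, 8.99, 8.86, 8.99 and 8.94 on the scrambled arrays. The scrambled values were almost level, the treated values were spread over a wide range, and every treated value lay below every control, replicate 5 by the smallest margin. The fold change was -2.40 (SE 0.70, adjusted p = 0.0281), and the two-sided exact permutation test gave p = 0.00794. The POLD3 probe was well above background on 3 of 5 treated arrays, and the call was lost in 7 of 10 analyses that left out 1 array. With the normexp correction the fold change of POLD3 was -1.42. POLD2, the subunit that links both, had a fold change of -1.65 (adjusted p = 0.0643) and passed without replicate 5 (-2.22, adjusted p = 0.00229).

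In polymerase epsilon, the leading strand enzyme, the catalytic subunit POLE fell, with a fold change of -1.02 (SE 0.35, adjusted p = 0.0463), on a probe well above background on 2 of 5 treated and 4 of 5 scrambled arrays. With the normexp background correction this was -0.13 (adjusted p = 0.589), and that of POLA2 was -0.45 (adjusted p = 0.0738), and neither was called in that setting. The calls of POLE and POLA2 were lost in 9 and 8 of 10 analyses that left out 1 array. POLE2 had a fold change of -0.36 and was not called. PRIM2 was not called at 0.15 on its brightest probe.

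**Figure D3:**
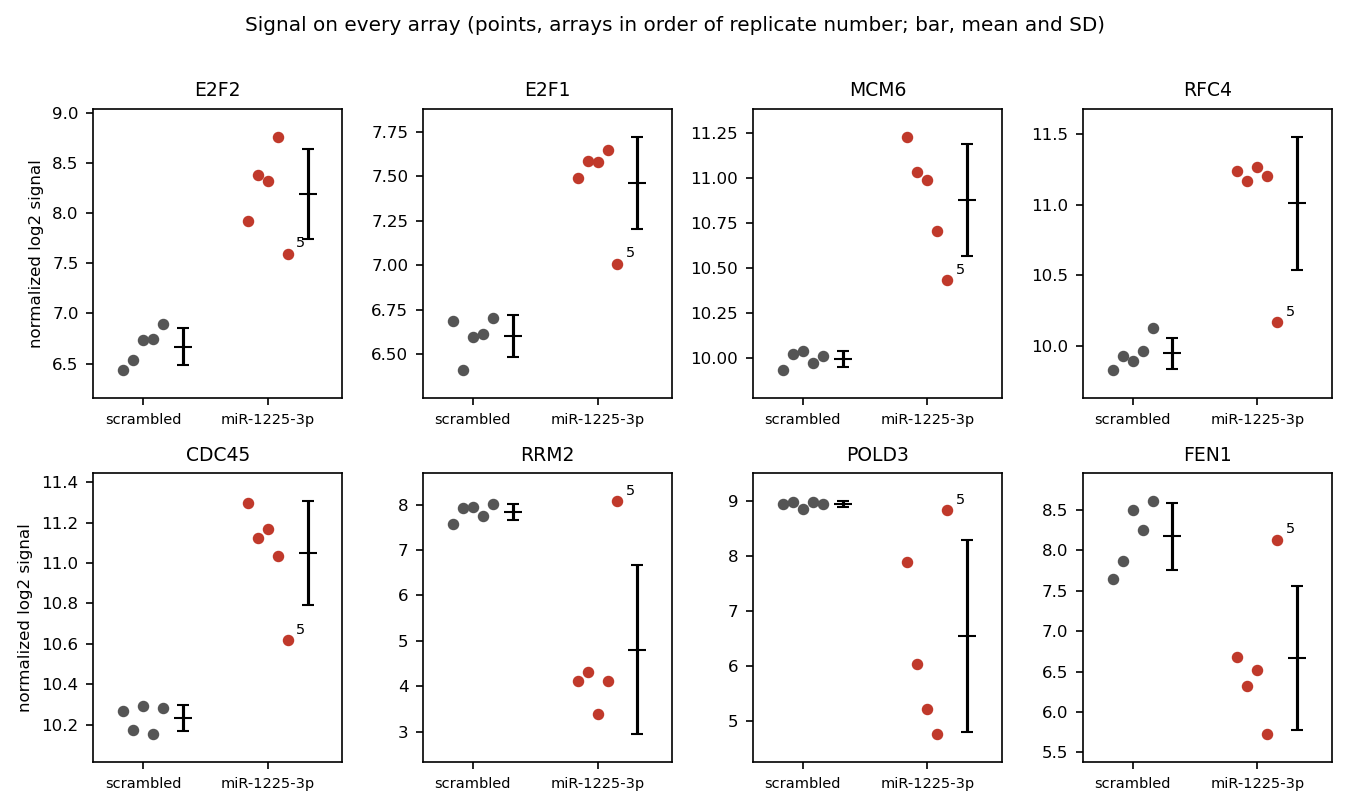
Points are the normalized log2 signals on each array for 5 genes called higher (E2F2, E2F1, MCM6, RFC4, CDC45) and 3 called lower (RRM2, POLD3, FEN1), with the mean and SD of each group (n = 5) to the right and the miR-1225-3p replicate 5 point marked 5. In all 8 panels replicate 5 is the treated point nearest to the scrambled arrays, and in the RRM2 panel it lies above them all.

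The clamp loader, a ring of 5 RFC proteins that opens PCNA around DNA, was also mixed. RFC4 read 11.24, 11.17, 11.27, 11.20 and 10.17 on the miR-1225-3p arrays and 9.83, 9.92, 9.89, 9.96 and 10.12 on the scrambled arrays. Replicates 1 to 4 formed a tight cluster, and replicate 5 sat just above the highest control. RFC4 rose by 1.06 (SE 0.21, adjusted p = 0.0139), which is 2.09-fold, and its call held in all 10 analyses that left out 1 array. RFC5 rose by 0.38 (adjusted p = 0.0372) and the large subunit RFC1 fell, with a fold change of -0.62 (adjusted p = 0.0455). Both of these calls were lost in 8 of 10 such analyses. RFC2 read 7.47, 7.16, 6.97, 6.71 and 8.33 after miR-1225-3p and 7.87, 7.78, 8.20, 7.97 and 8.34 after the scrambled precursor. Replicate 5 alone overlapped the controls, and the fold change of -0.71 (SE 0.28, adjusted p = 0.0698) was not called with it. Without replicate 5 it was -0.96 (adjusted p = 0.00197). PCNA itself was at 0.34 (adjusted p = 0.0706) and reached 0.43 (adjusted p = 0.00816) without replicate 5.

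Single-strand binding and lagging strand joining held 1 called rise (17.0% of all genes) and 1 called fall (18.1% of all genes) among 5 genes. Both counts were near the shares of all genes. FEN1, the nuclease that trims the flaps of Okazaki fragments, read 6.68, 6.32, 6.51, 5.72 and 8.13 on the miR-1225-3p arrays and 7.64, 7.87, 8.50, 8.25 and 8.61 on the scrambled arrays. Replicates 1 to 4 lay below every scrambled value and replicate 5 lay among them. FEN1 fell, with a fold change of -1.50 (SE 0.40, adjusted p = 0.0223), and its probe was well above background on all 10 arrays. It was -0.96 with the normexp correction, and the call was lost in 3 of 10 analyses that left out 1 array. DNA ligase 1 (LIG1), which seals the nick after FEN1, read 10.02, 10.22, 10.05, 10.37 and 9.67 after miR-1225-3p and 9.76, 9.46, 9.60, 9.63 and 9.80 after the scrambled precursor. Its treated values stood above the controls on replicates 1 to 4 and within them on replicate 5. The fold change of LIG1 had the opposite sign at 0.41 (SE 0.15, adjusted p = 0.0566) and passed without replicate 5 (0.51, adjusted p = 0.00648). The smallest subunit of replication protein A, RPA3, rose by 0.37 (adjusted p = 0.0435) without overlap (a call lost in 9 of 10 such analyses), and RPA1 and RPA2 were not called at 0.28 and 0.07.

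The deepest fall of the set was in nucleotide supply. RRM2, the S phase subunit of ribonucleotide reductase that carries the tyrosyl radical, read 4.12, 4.32, 3.39, 4.11 and 8.08 on the miR-1225-3p arrays and 7.58, 7.92, 7.95, 7.76 and 8.002 on the scrambled arrays. Replicates 1 to 4 lay far below the controls, and replicate 5 lay above all of them. The fold change over all arrays was -3.04 (SE 0.74, adjusted p = 0.0182), and the two-sided exact permutation test gave p = 0.0476. Its probe was well above background on replicate 5 and on 0 of the other 4 treated arrays. Without replicate 5 the measured difference was 14.5-fold. The size of that difference is uncertain, because these 4 signals were not well above background and depend on the background correction. The normexp correction gave a fold change of -1.23 over all arrays (adjusted p = 0.0225). The call held in all 10 analyses that left out 1 array, which kept the same probe filter. RRM2 met that filter only through the scrambled arrays, where its signal was high. The held calls and the permutation test therefore do not stand apart from the filter.

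RRM1, the large subunit of the same enzyme, moved the other way. It read 11.60, 11.55, 11.44, 11.48 and 11.01 after miR-1225-3p and 10.95, 10.94, 10.82, 10.99 and 11.16 after the scrambled precursor. Replicate 5 fell within the controls and the other treated values above them. RRM1 rose by 0.44 (SE 0.14, adjusted p = 0.0368), and its call was lost in 8 of 10 analyses that left out 1 array. Thymidylate synthase (TYMS) rose by 0.41 (adjusted p = 0.0414), a call that was lost in 9 of 10 analyses that left out 1 array. Thymidine kinase 1 (TK1) and dUTPase (DUT) were not called, with fold changes of 0.12 and 0.24.

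In chromatin assembly behind the fork, CHAF1B, the middle subunit of the CAF-1 histone chaperone, read 9.69, 9.90, 9.89, 10.02 and 9.39 on the miR-1225-3p arrays and 9.24, 9.19, 9.35, 9.25 and 9.45 on the scrambled arrays. Only replicate 5 overlapped the controls. CHAF1B rose by 0.48 (SE 0.14, adjusted p = 0.0296). CHAF1A, the large subunit, did not overlap between groups but missed the threshold at 0.33 (adjusted p = 0.0532). It passed without replicate 5 (0.36, adjusted p = 0.0203). UHRF1, which brings DNMT1 to newly copied DNA, read 9.36, 9.20, 9.17, 9.43 and 9.77 after miR-1225-3p and 9.82, 10.01, 9.83, 9.82 and 9.75 after the scrambled precursor. Its treated values were lower on replicates 1 to 4 and reached the controls on replicate 5, for a fold change of -0.46 (SE 0.14, adjusted p = 0.0328). Under 75th percentile scaling the value for UHRF1 was -0.10 (adjusted p = 0.609). Leaving out 1 array ended the call of CHAF1B in 7 of 10 cases and that of UHRF1 in 8.

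**Figure D4:**
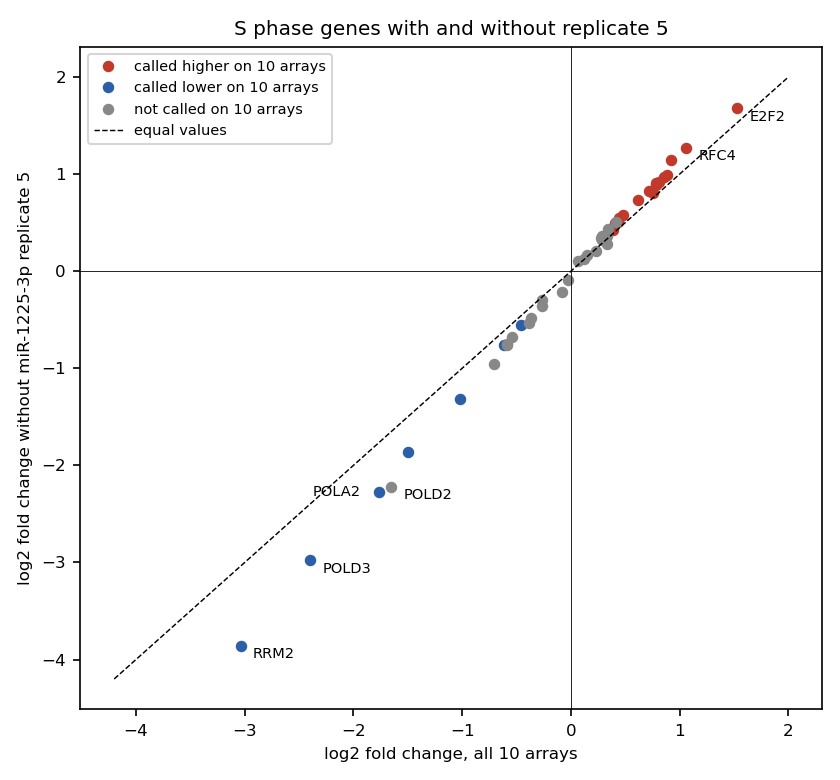
Each point is 1 tested S phase gene, with its log2 fold change over all 10 arrays on the horizontal axis and without the miR-1225-3p replicate 5 array on the vertical axis, and the dashed line marks equal values. Genes called lower lie below the line, RRM2 at -3.04 against -3.86, and most genes called higher lie slightly above it.

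Several probes reported on some genes, and they did not always move together. Of 8 members with more than 1 kept probe, the direction differed between probes in PRIM2, RFC3 and RPA2. The brightest RFC3 probe gave -0.58 (adjusted p = 0.339), with a low value of 5.59 on replicate 4, and a probe designed on another RFC3 transcript gave 0.68 (adjusted p = 0.0209 over all kept probes). The other kept PRIM2 probes gave 0.65 and -1.87, both on dim signals, and the second RPA2 probe gave -0.54 (adjusted p = 0.0544). UHRF1 kept its direction, but its second probe fell by 3.11 and was well above background on 1 of 5 treated arrays. A gene-level statement for PRIM2, RFC3 and RPA2 is therefore uncertain on this array.

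**Figure D5:**
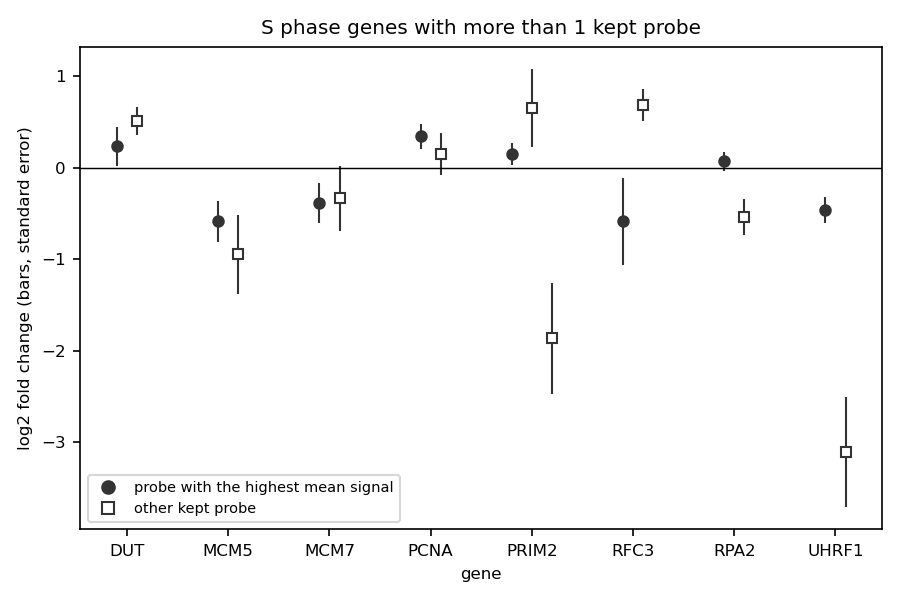
Log2 fold changes (miR-1225-3p over scrambled, with standard errors) of all kept probes are shown for the 8 S phase genes with more than 1. The probe used for the gene is filled and other probes are open, and the signs differ for PRIM2, RFC3 and RPA2.

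Other genes of the pathway, 82 in 6 lists, were counted beside the set. Of 78 tested, 23 were called higher (17.0% of all genes) and 14 lower (18.1% of all genes), with a median fold change of 0.09. The share called lower was near that of all genes. The largest called rises were in CDCA7, a partner of the chromatin remodeler HELLS (1.21, adjusted p = 0.0136), the helicase WRN (1.14, adjusted p = 0.0136) and the checkpoint kinase ATR (1.13, adjusted p = 0.0159). The largest called falls were in the cyclin E partner CDK2 (-2.13, adjusted p = 0.0147, well above background on 2 of 5 treated arrays), the clamp loader subunit CHTF8 (-2.09, adjusted p = 0.0190, well above background on 3 of 5 treated arrays) and topoisomerase TOP1 (-1.62, adjusted p = 0.0488). CDK2 met the rule for testing only through the scrambled arrays, where its signal was high. The call of TOP1 was lost in 7 of 10 analyses that left out 1 array, with an adjusted p of up to 0.110. Against these shares, fork and checkpoint genes were called higher in 7 and lower in 1 of 12 tested, and origin recognition and firing genes higher in 6 and lower in 2 of 15. Of 18 tested genes of E2F and G1/S control, 0 were called higher and 3 lower, the latter a share near the 18.1% of all genes. These were CDK2, cyclin A2 (CCNA2, -0.96) and SKP2 (-0.70), the last pair named after their values were seen.

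The 2 slides held both groups, and no member was called within slide 2 (3 miR-1225-3p and 2 scrambled arrays), where 4 had an unadjusted p under 0.05. Slide 2 held the miR-1225-3p replicate 5 array, which stood among the scrambled arrays. Within slide 1 (2 against 3 arrays), 15 members were called, beside 25.9% of all genes, and within slide 2 the share of all genes was 0%. The fold changes within slides 1 and 2 were 1.46 and 1.59 for E2F2, 1.14 and 0.71 for MCM6, -3.62 and -2.65 for RRM2, and -1.95 and -2.73 for POLD3. With slide as a block, 18 members were called (30.4% of all genes), 14 higher and 4 lower. Markers of the megakaryocyte lineage also moved between the groups, 1 of 11 tested higher (17.0% of all genes) and 4 lower (18.1% of all genes) with a median of -0.60, and their part in the S phase values was not tested.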

How the data were processed

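Gene expression was measured in 10 MEG-01 samples on single-colour Agilent arrays. The files deposited by the authors are Agilent Feature Extraction 10.7.3.1 output (the methods name another version), whose processed signal is an intensity after background subtraction, and a table of normalized log2 values for 29271 probes, used as an alternative. Its scale and direction followed the values computed here (slope 1.03, r = 0.848 to 0.988 per array after probe centring), and its column medians ran from 4.77 to 5.15. The methods' subtraction of the log mean of the controls was not repeated.

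Log2 processed signals of 58717 spots were brought to a common scale with cyclic loess (R 4.3.3, limma 3.58.1, 3 iterations), leaving out 4259 control spots. Outlier spots were dropped before replicate spots were averaged. A probe was kept when at least 3 arrays in 1 group or the other had it well above background, which held for 20648 of 42405. Accessions of 24910 probes matched a RefSeq symbol of GRCh38.p14. An accession without a match was counted as a gene of its own. The kept probe of highest mean signal stood for each of the 17379 genes counted in this way. Shares of all genes are over these. Groups were compared with limma, and single genes also with a two-sided exact permutation test. The number of arrays limits the precision. The fit was tested on simulated data. Groups came from the sample titles, since the source label of the scrambled samples reads otherwise.

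Genes described on every array are the largest rise and fall in each of 8 role lists (the G1/S list held no fall), and MCM6, added after its values were seen. From the wider list the 3 largest called rises and falls are given as fold changes. Members and lists were chosen with earlier results of these data known. Alternatives covered scaling, background correction, the dim probe filter, outlier spots, the probe rule, the methods' t-test, slide, the replicate number and leaving out each array. Normexp used the median signals with an offset of 50, since the mean signal was not used here. Probe sequences were not used here.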

Additional observations from a re-analysis of the deposited data

Results flagged for a closer look

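For each tested S phase gene, the highest or lowest of the 5 arrays of a group was compared with the gap to its neighbour. Of 92 groups of 5 arrays, 7 held a value that stood apart, and chance gives about 1 in 20, which is 4.6 groups. The miR-1225-3p replicate 5 array held 5 of the 7 and the scrambled arrays 0. On replicate 5 these were the log2 signals of PRIM1 (7.18), RFC4 (10.17), RRM1 (11.01), E2F1 (7.01) and RRM2 (8.08). The first 4 were the lowest treated values and that of RRM2 the highest. On replicate 4 the values were 8.36 for PRIM2, the highest, and 5.59 for RFC3, the lowest.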

How the results depend on the processing

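The fold changes of MCM6, CDC45, PRIM1, POLD1, RFC4, E2F1, E2F2 and RRM2 were called in all 10 analyses that left out 1 array. RRM2 met the rule for testing only through the scrambled arrays, and the probe filter was not reset in these analyses. Leaving out 1 array gave between 8 and 33 members called, 7 to 22 higher and 1 to 11 lower, a median between 0.24 and 0.32, and 14 to 53 of the wider genes called. The highest counts came without miR-1225-3p replicate 5 and the lowest without miR-1225-3p replicate 2. The counts of all genes moved too. Without replicate 5, 26.4% of all genes were called higher and 29% lower, and without replicate 2 these shares were 6.98% and 5.27%. Without normalization 2 members were called, 0 higher (1% of all genes) and 2 lower (6.28%), and 3 wider genes. Dropping the filter on dim probes raised the genes tested to 35267. In that setting 11 members were called, 9 higher (5.36% of all genes) and 2 lower (4.31%), and 19 wider genes. Under 75th percentile scaling 28 members were higher (26.3% of all genes) and the median was 0.67. Under quantile normalization 4 were lower (14.4% of all genes) and the median was 0.39. Lower members numbered 4 (19.1% of all genes) when every array had to detect the probe. They numbered 3 (11.7% of all genes) by the methods' t-test and 4 (15.4%) with slide as a block. Within slide 1, 15 members were called, 9 of them higher (11.9% of all genes), and 20 wider genes. Within slide 2, 0 members were called, 0 higher and 0 lower, and 0 wider genes, beside 0 of all genes. There 4 members had an unadjusted p under 0.05.

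Equal replicate numbers did not pair the arrays: correlations of same-numbered deviations were -0.22, -0.08, -0.40, 0.07 and -0.15. With the replicate block in the limma fit, 0 members were called, 0 higher and 0 lower, and 0 wider genes, beside 0 of all genes. In that fit 27 members had an unadjusted p under 0.05.

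Signs turned for small fold changes. MCM3 became 0.48 under 75th percentile scaling, where it was called higher (adjusted p = 0.0437). It was 0.031 (quantile), 0.055 (no normalization), 0.015 (slide block) and 0.19 (within slide 1), and ran from -0.13 to 0.12 on leaving out 1 array. MCM4 became 0.24 and 0.055 under 75th percentile and quantile scaling and ran from -0.21 to 0.068. The 75th percentile also turned MCM2 (0.15), MCM7 (0.18) and GINS3 (0.031). MCM10 was 0.10 within slide 1. PRIM2 was -0.094 without normalization, -0.35 as the mean of probes and -1.87 on the probe with the smallest p. RFC3 was 0.048 as the mean of probes, 0.68 on that probe and 0.19 within slide 1. RPA2 was -0.0089 on the authors' values, -0.010 after normexp, -0.24 as the mean and -0.54 on the probe with the smallest p. The causes were not tested.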
